A study of Mus musculus with 20 samples.

Results

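CREM and 9 other regulators of transcription in male germ cells were followed through early spermatogenesis. The members were taken by name, as the rows Crem, Fhl5, Fhl4, Mybl1, Tcfl5, Rfx2, Tbpl1, Taf7l, Spz1 and Ovol1 of the gene count table, and are 10 of its 23366 gene symbols. RNA had been sequenced from whole testis of wild-type C57BL/6J mice at day 1, day 3 and day 7 after birth, and from mixed leptotene/zygotene and from pachytene spermatocytes of wild-type adults aged 70 to 80 days. Each of the 5 stages had 2 biological replicates, giving 10 RNA libraries. The spermatocytes were enriched by STA-PUT, a sedimentation of cells at unit gravity, and the submitters judged purity under the microscope, at about 90% for the pachytene fraction. A step between day 7 and the spermatocytes therefore compares a whole organ of a juvenile with germ cells of an adult, so stage, age, cell makeup and purification cannot be told apart, nor can fewer cells of a type and less RNA per cell.

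CREM is a transcription factor of the CREB family, and its activator forms in male germ cells drive genes that build the spermatid. The counts are per gene, so the Crem level does not tell its forms apart. FHL5, also called ACT, and its relative FHL4 are LIM-domain proteins of the testis, and FHL5 is a coactivator of CREM that needs no phosphorylation of CREM. MYBL1 (A-MYB) is known as the activator of many genes of pachytene spermatocytes, TCFL5 is a helix-loop-helix factor of spermatocytes, and RFX2 drives cilium and sperm tail genes. TBPL1 and TAF7L are relatives of general transcription factors, SPZ1 is a helix-loop-helix zipper protein of the testis, and OVOL1 is a zinc finger repressor.

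Promoter sequence from the RefSeq promoter table (build GRCm38.p6) was used for 7 of the 10 members, with 8 promoters in all. Crem, Mybl1 and Ovol1 are without one here. The chromosome that holds Crem was left out of this step, so whether the table has a Crem promoter was not tested. The 250 bases before each start were searched on both strands for TGACGTCA (the full cAMP response element), TGACG (its core), GTTGCC (a part of the X-box that RFX factors read) and CAACNG (a core that MYB factors read). Among the 32851 promoters of the table, these were present in 1.55%, 17.8%, 10.4% and 29.3%. No promoter of the 7 members held the full element, and Fhl5, Fhl4 and Tbpl1 had no match to any of the 4. The promoters of Rfx2 (chr17:56831009-56831258, minus strand), Tcfl5 (chr2:180642692-180642941, minus strand) and Taf7l (chrX:134476491-134476740, minus strand) are shown because they hold the CAACNG core. Each reads 5′ to 3′ on the strand of the gene, and capitals mark the matches.
Rfx2: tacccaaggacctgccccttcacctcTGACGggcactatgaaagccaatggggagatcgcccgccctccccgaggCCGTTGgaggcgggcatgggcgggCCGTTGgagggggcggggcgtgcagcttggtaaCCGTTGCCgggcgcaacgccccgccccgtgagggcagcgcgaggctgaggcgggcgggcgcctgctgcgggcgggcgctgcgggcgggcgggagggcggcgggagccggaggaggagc
Tcfl5: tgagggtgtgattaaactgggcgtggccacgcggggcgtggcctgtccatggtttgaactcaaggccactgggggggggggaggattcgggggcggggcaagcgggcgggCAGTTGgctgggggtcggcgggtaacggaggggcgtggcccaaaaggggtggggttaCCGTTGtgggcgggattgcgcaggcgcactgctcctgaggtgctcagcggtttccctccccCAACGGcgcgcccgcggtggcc
Taf7l: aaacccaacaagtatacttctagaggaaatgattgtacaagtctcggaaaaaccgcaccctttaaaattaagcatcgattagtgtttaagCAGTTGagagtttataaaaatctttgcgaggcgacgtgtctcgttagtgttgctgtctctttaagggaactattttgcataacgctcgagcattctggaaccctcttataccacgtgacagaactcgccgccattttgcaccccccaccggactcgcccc
Rfx2 held TGACG at -224, GTTGCC at -116 and CAACNG on the reverse strand at -175, -151 and -118 from the start, the last overlapping GTTGCC. Tcfl5 held CAACNG at -140 and -83 on the reverse strand and at -22 on the forward strand. At least 3 such cores occurred in 0.989% of all promoters. Taf7l held 1 at -160, and Spz1 held GTTGCC at -13. A match describes these letters and is no evidence of binding.

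The libraries held 3597360 to 22181395 counts on genes, and levels are given as CPM, counts scaled to library size with trimmed mean of M-values (TMM) factors. Sertoli markers went along with the labels for whole testis, and spermatid markers went in part against one for the spermatocytes. The 9 Sertoli markers in the table summed to 37.7 to 281 CPM in the 4 spermatocyte libraries, against 3164 to 3935 CPM in the 6 whole testis libraries. The 10 spermatid markers, genes of cells later than meiosis, summed to 8034 and 5647 CPM in the pachytene libraries, against 62365 and 69150 CPM in the leptotene/zygotene libraries. Spermatid marker RNA was thus lower in the pachytene fraction than in the fraction labelled leptotene/zygotene. The 8 early meiotic markers summed to 708 and 1132 CPM in pachytene libraries and to 530 and 995 CPM in leptotene/zygotene libraries. Of these 8, 2 were called higher in pachytene and none lower, with a median log2 fold change of 0.60. The 6 pachytene markers summed to 12083 and 12956 CPM in pachytene libraries and to 14602 and 15865 CPM in leptotene/zygotene libraries, with 1 of 6 called higher in pachytene and a median log2 fold change of -0.03. The summed level of neither list set the 2 fractions apart in the order their labels give, which limits what a step between them says about stage. The part that spermatid RNA has in the values of the leptotene/zygotene libraries was not tested. Pachytene is also set against day 7 directly. In that comparison all 10 spermatid markers were higher too, with a median log2 fold change of 12.74, and their part was not tested either. All 10 members passed the filter on low counts, which kept 16872 genes.

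**Figure D1:**
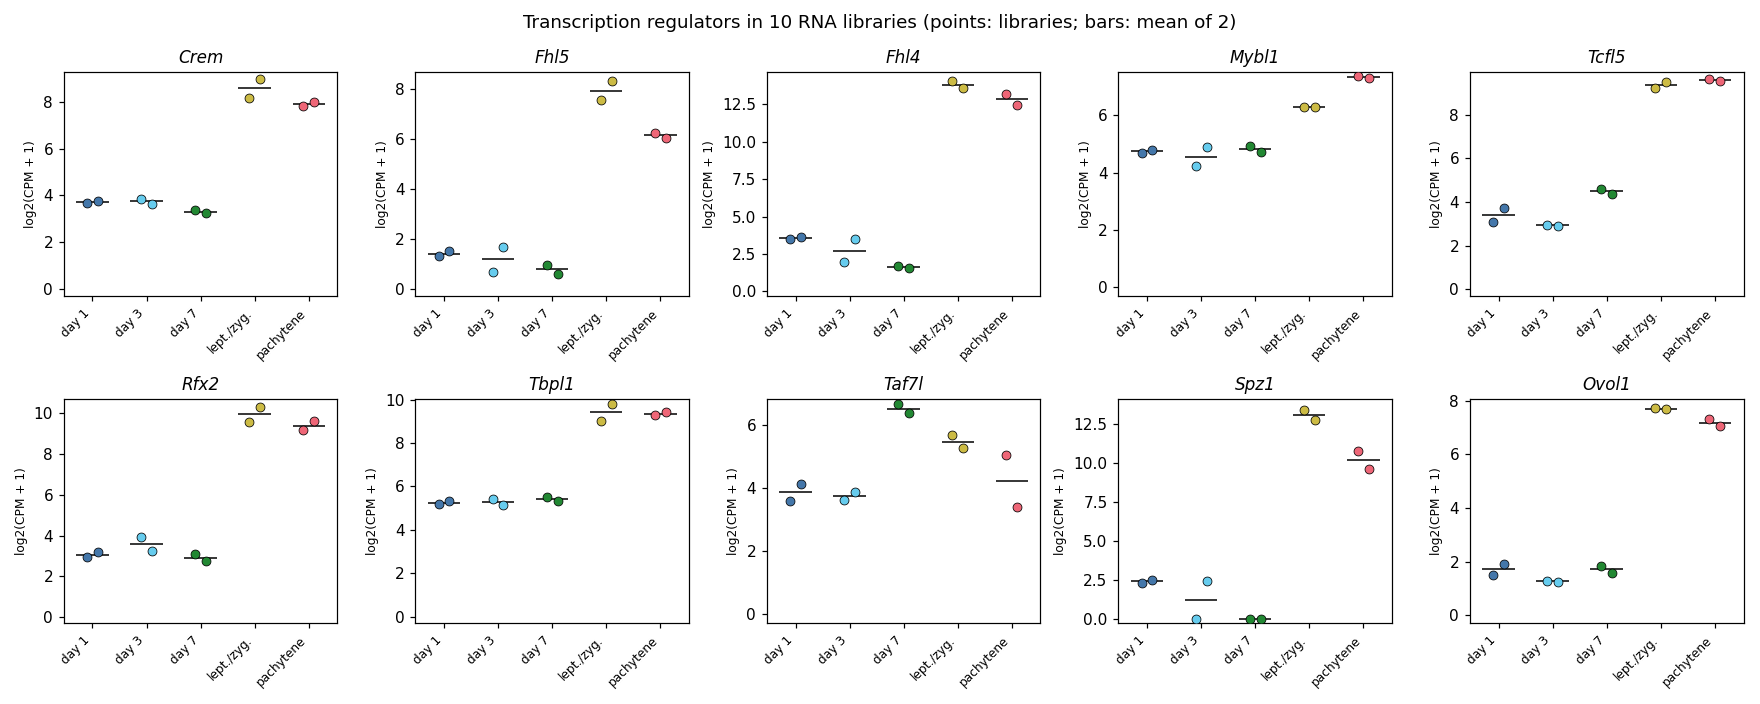
Levels of the 10 regulators as log2(CPM + 1) in each RNA library over the 5 stages, with points for libraries and bars for the mean of 2. In all genes but Taf7l the 4 spermatocyte libraries lie above the 6 whole testis libraries, while Taf7l peaks at day 7.

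The change in most members fell between day 7 testis and spermatocytes. In day 3 over day 1 no member was called, and 0% of all genes were (edgeR's quasi-likelihood test over all 10 libraries, Benjamini-Hochberg adjustment over the 16872 genes, called under 0.05; 1097 genes and 1 member at an unadjusted p under 0.05; DESeq2 called 79 genes and 0 members). In day 7 over day 3, 2 members, Tcfl5 and Taf7l, were higher and none lower, against 0.931% and 0.563% of all genes (1.49% in either direction). In day 7 over day 1, Taf7l alone was called, higher, against 1.08% of all genes higher and 2.28% lower (3.36% in either direction). In leptotene/zygotene over day 7, 9 members were higher and none lower, against 36.5% and 42% of all genes (78.5% in either direction), with median log2 fold changes of 5.99 and -0.31. Setting Spz1 at its bound leaves the members' median as it is. In pachytene over leptotene/zygotene, Mybl1 was higher and Fhl5 lower, against 9.03% and 13.2% of all genes, a share of members like that of all genes (22.2% in either direction). In pachytene over day 7, 9 members were higher and Taf7l lower, against 35.1% and 40.1% (75.2% in either direction), with medians of 5.56 and -0.27. With both leptotene/zygotene libraries left out of the fit, an alternative added after seeing the data, 10 members were again called in pachytene over day 7. That fit compared the same pachytene and day 7 libraries.

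**Figure D2:**
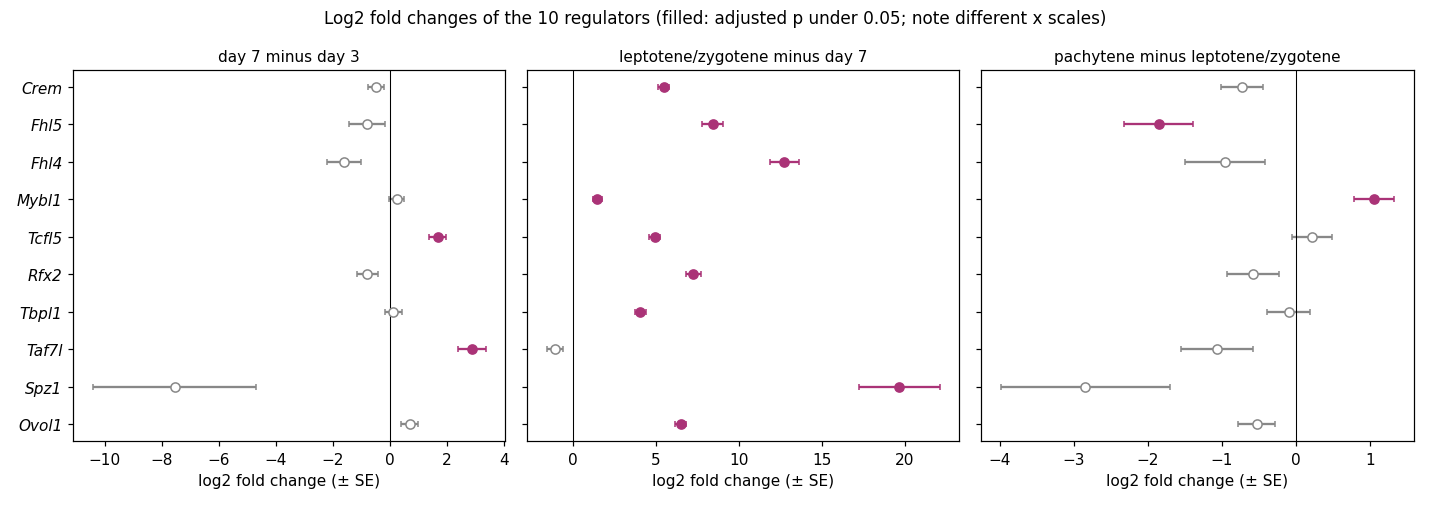
Log2 fold changes of the 10 regulators with their standard errors in day 7 over day 3, leptotene/zygotene over day 7 and pachytene over leptotene/zygotene (filled where the edgeR adjusted p is under 0.05; x scales differ; Spz1 is drawn at its fitted value, which rests on no day 7 count). All but Taf7l lie to the right in leptotene/zygotene over day 7.

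Crem, Fhl5 and Fhl4 were low in the neonatal testis and far higher in spermatocytes. Crem had 11.9 and 12.7 CPM on day 1, 13.5 and 11.5 CPM on day 3, 9.26 and 8.59 CPM on day 7, 287 and 511 CPM in the leptotene/zygotene cells and 223 and 258 in pachytene cells. The spermatocyte libraries did not overlap those of any testis stage. Crem was higher in leptotene/zygotene cells than in day 7 testis by 5.48 ± 0.35 on the log2 scale (SE, n = 2 each, edgeR adjusted p = 8.47e-07). In pachytene cells it was higher than at day 7 by 4.75 ± 0.33 (SE, edgeR adjusted p = 1.89e-06). Between the spermatocyte fractions, its log2 fold change of -0.73 ± 0.29 (pachytene over leptotene/zygotene) did not pass (edgeR adjusted p = 0.0965), although the libraries did not overlap. That call depended on settings: DESeq2, median-ratio size factors and leaving out the first leptotene/zygotene library all passed it.

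Fhl5 was the only member called lower in pachytene than in leptotene/zygotene cells. It had 1.48 and 1.81 CPM on day 1, 0.599 and 2.20 CPM on day 3, 0.937 and 0.491 CPM on day 7, 188 and 317 CPM in the leptotene/zygotene cells and 74.4 and 65.3 in pachytene cells. Levels in testis were low, and day 3 overlapped both other ages while day 7 lay below day 1. Fhl5 was higher by 8.44 ± 0.65 in leptotene/zygotene cells than at day 7, and fell by 1.86 ± 0.47 in pachytene cells relative to leptotene/zygotene cells (log2, SE, edgeR adjusted p = 2.33e-06 and 0.0208). The fall lost its call with plain library sizes (log2 change -1.28, edgeR adjusted p = 0.0532) and with a 2-fold minimum (adjusted p = 0.148). It also lost it without the second leptotene/zygotene library or without either pachytene library, with log2 changes of -2.18 to -1.43 on leaving out each library in turn (edgeR adjusted p 0.00933 to 0.0840).

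Fhl4 was among the most changed members. It had 10.6 and 11.6 CPM on day 1, 2.90 and 10.1 CPM on day 3, 2.26 and 1.90 CPM on day 7, 16770 and 12264 CPM in the leptotene/zygotene cells and 9317 and 5576 in pachytene cells. The day 7 libraries were the lowest. Fhl4 was higher in leptotene/zygotene cells than at day 7 by 12.76 ± 0.87 on the log2 scale (SE, edgeR adjusted p = 1.25e-06), and its lower pachytene level, a change of -0.96 ± 0.54, did not pass (edgeR adjusted p = 0.239).

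Most relatives of these 3 genes moved the other way. Creb1, the widely expressed relative of Crem, was lower in leptotene/zygotene cells than at day 7 by 1.98 ± 0.33 on the log2 scale (SE, edgeR adjusted p = 0.000346). It averaged 29.6 CPM in leptotene/zygotene cells and 115 CPM at day 7. Fhl1, Fhl2 and Fhl3, LIM-only genes of muscle and other somatic tissues, were each lower in leptotene/zygotene cells, with log2 fold changes of -5.27, -5.30 and -4.03. These genes fell together with the somatic markers given above, and the part of somatic cells in that was not tested. Atf1, another CREB relative, was higher by 1.16 ± 0.24 (SE, edgeR adjusted p = 0.0015), but turned to -0.23 with plain library sizes. Kif17, the kinesin that carries FHL5 out of the nucleus, had 1383 and 1508 CPM in leptotene/zygotene cells and 6.62 and 4.73 CPM at day 7. It was higher by 7.99 ± 0.33 on the log2 scale in leptotene/zygotene cells than at day 7, and fell by 2.14 ± 0.25 in pachytene cells relative to leptotene/zygotene cells (SE, edgeR adjusted p = 0.000962 for the fall).

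A list of 16 partners and other testis regulators, which holds Kif17, had 10 genes higher and 5 lower in leptotene/zygotene cells than at day 7, with a median log2 fold change of 1.38 against -0.31 over all genes tested. With plain library sizes it had 7 higher and 6 lower, and the median turned to -0.02. The CREB-regulated transcription coactivators Crtc1, Crtc2 and Crtc3 were lower in leptotene/zygotene cells than at day 7, by log2 changes of -2.92 ± 0.34, -2.05 ± 0.25 and -5.23 ± 0.38 (SE, edgeR adjusted p = 3.42e-05, 4.83e-05 and 1.75e-06). They averaged 11.4, 12.9 and 4.61 CPM in leptotene/zygotene cells, against 90.3, 52.8 and 151 CPM at day 7. Taf1, the largest subunit of TFIID, and Taf4b, a TFIID subunit of the gonads, were lower as well, by -3.46 ± 0.53 and -1.23 ± 0.40, the call for Taf4b being lost with median-ratio factors (edgeR adjusted p = 0.0868). These 5 genes, like the FHL relatives, fell together with the somatic markers. In the same step 5 of the 8 spermatogonium markers were lower and 1 was higher, with a median log2 fold change of -2.72. Their summed level went the other way, averaging 304 CPM at day 7 and 1727 CPM in leptotene/zygotene cells. Taf4b averaged 44.1 CPM at day 7 against 13.1 CPM at day 3. The part of somatic cells or spermatogonia in these falls was not tested.

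The genes of the list that were higher in leptotene/zygotene cells included Camk4, a calcium-dependent kinase, by 4.69 ± 0.28, Brdt, a bromodomain protein of the testis, by 5.65 ± 0.32, and Sox30, a regulator of spermatid genes, by 7.62 ± 0.34 (log2, SE). Hsfy2, a relative of the heat shock factors, averaged 232 CPM in leptotene/zygotene cells and had no count at day 7, so it was at least 2596-fold higher. Gtf2a2, a subunit of TFIIA, was higher by 2.31 ± 0.38, while Gtf2a1, at 0.29 ± 0.31, was not called (edgeR adjusted p = 0.395). Prkaca, a catalytic subunit of protein kinase A, the general factor Gtf2b and the heat shock factor Hsf2 were higher by 1.16 ± 0.27, 1.38 ± 0.25 and 1.38 ± 0.24, but turned to -0.24, -0.02 and -0.02 with plain library sizes. In pachytene cells over leptotene/zygotene cells, none of the 16 was higher and 4 were lower, with a median of -0.14. Beside Kif17 these were Camk4, Hsf2 and Sox30, with log2 changes of -2.46 ± 0.25, -1.15 ± 0.24 and -0.95 ± 0.25 (SE, edgeR adjusted p = 0.000765, 0.01 and 0.0244), and with plain library sizes Hsf2 and Sox30 lost their calls and 4 of the 16 were higher.

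A list of 11 late genes described as CREM targets was chosen for comparison, with earlier results of these data known. In leptotene/zygotene cells over day 7, all 11 were higher, with a median log2 fold change of 15.60 that rests in part on genes with 3 or fewer day 7 counts. In pachytene cells over leptotene/zygotene cells, 6 of the 11 fell and none rose, with a median of -3.04 against -0.06 over all genes tested. Tnp1 and Tnp2, the transition proteins, and Prm1, a protamine, fell by 3.45, 3.48 and 3.46 on the log2 scale. Of the 11, 6 are also spermatid markers (Prm1, Prm2, Tnp1, Tnp2, Smcp and Odf1), so the list and the marker sum given above are not separate measures.

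**Figure D3:**
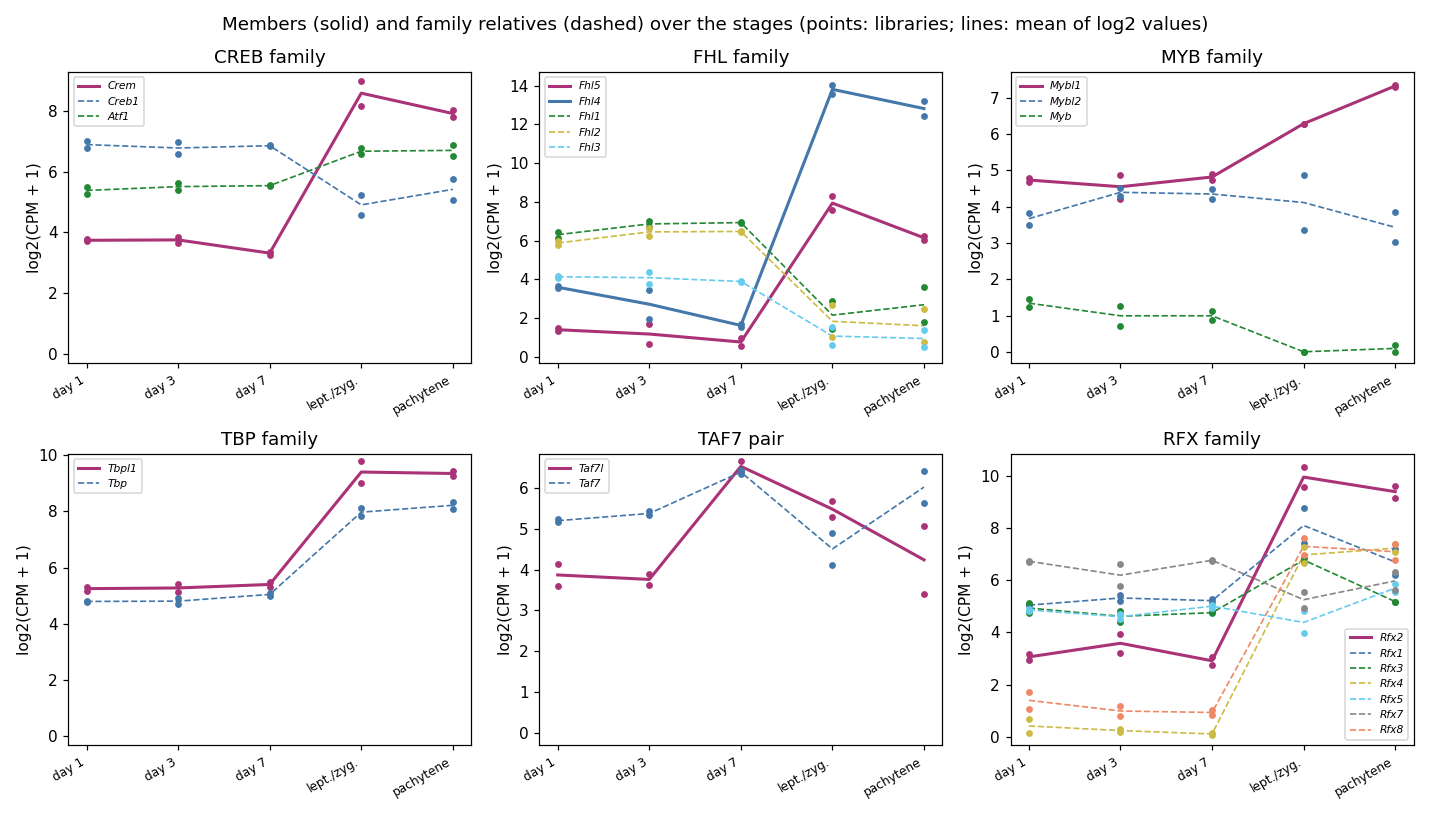
Levels of members (solid) and their family relatives (dashed) as log2(CPM + 1) over the 5 stages; points are libraries and lines join means of log2 values. Creb1 and the FHL relatives are lower in the spermatocyte fractions than in day 7 testis, while Crem, Fhl4 and Fhl5 are higher.

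Mybl1 was the one member called higher in pachytene than in leptotene/zygotene cells. It had 24.9 and 26.5 CPM on day 1, 17.6 and 28.6 CPM on day 3, 29.1 and 25.5 CPM on day 7, 77.3 and 77.3 CPM in the leptotene/zygotene cells and 162 and 158 in pachytene cells. Its testis ages overlapped and its spermatocyte fractions stood clear of them and of each other. Mybl1 was higher in leptotene/zygotene cells than at day 7 by 1.50 ± 0.27 and higher in pachytene than in leptotene/zygotene cells by 1.05 ± 0.27 (log2, SE, edgeR adjusted p = 0.00061 and 0.0225). With plain library sizes in place of TMM the earlier step shrank to 0.12 (edgeR adjusted p = 0.677), under a scaling that puts the median of all genes at -1.71, against -0.31 with TMM. The later step lost its call without the second leptotene/zygotene library or either pachytene library (edgeR adjusted p 0.0349 to 0.0683 over the 4 libraries left out in turn), at log2 changes of 1.03 to 1.07. Its relative Mybl2 was not called in leptotene/zygotene over day 7 (0.03 ± 0.47, SE, edgeR adjusted p = 0.963) or in pachytene over leptotene/zygotene (-0.94 ± 0.49, adjusted p = 0.203), and Myb was under 5 CPM in each stage.

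The piRNA pathway is a class that MYBL1 is described to activate. Of 12 such genes, 7 were higher in leptotene/zygotene cells than at day 7 and 5 were higher in pachytene than in leptotene/zygotene cells, with none lower in either. With plain library sizes the earlier step gave 5 higher and 3 lower, and the later step 9 higher. Piwil1, the MIWI protein that binds piRNAs, rose in pachytene cells by 3.20 ± 0.31 relative to leptotene/zygotene cells, averaging 1180 CPM against 129 CPM. Piwil1 is also the 1 of the 6 pachytene markers called higher in this step, so the 2 lists are not separate measures. Tdrd5 and Tdrd1, tudor proteins of the germ granule, rose by 3.01 and 2.67. Median log2 fold changes in that step were 1.11 for the 12 genes and -0.06 for all genes tested. Already in day 7 testis 7 of the 12 were higher than at day 3, against 0.931% of all genes. Mybl1 itself, at 27.3 CPM against 23.1 CPM, was not called. Relative to day 1, 4 of the 12 were higher at day 7 and 1 was lower, against 1.08% and 2.28% of all genes. Without either day 7 library, however, no gene at all was called in day 7 over day 3, and 83 were without the first day 3 library. In that step 4 of the 8 spermatogonium markers and 2 of the 8 early meiotic markers were also called higher, with median log2 fold changes of 2.88 and 1.53, and their part in the piRNA counts was not tested.

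Tcfl5 had 7.64 and 12.4 CPM on day 1, 6.86 and 6.59 CPM on day 3, 23.3 and 19.8 CPM on day 7, 590 and 733 CPM in the leptotene/zygotene cells and 792 and 739 in pachytene cells. Day 7 lay above both earlier ages, and the spermatocytes lay far above day 7. The gene was higher at day 7 than at day 3 by 1.68 ± 0.29 and higher in leptotene/zygotene cells than at day 7 by 4.94 ± 0.32 (log2, SE, edgeR adjusted p = 0.0293 and 9.45e-07). The day 7 call was lost on leaving out any of the 4 libraries compared (edgeR adjusted p 0.0806 to 0.357, log2 change 1.41 to 1.65). The spermatogonium markers summed to 329 and 279 CPM in the day 7 libraries and to 44.9 and 74.2 CPM in the day 3 libraries, and the early meiotic markers to 91.7 and 83.2 CPM at day 7 and to 20.1 and 22.9 CPM at day 3. Their part in the higher day 7 level of Tcfl5 was not tested. Pachytene over leptotene/zygotene gave 0.21 ± 0.27 (SE, edgeR adjusted p = 0.642), and 0.77 with plain library sizes, which passed (edgeR adjusted p = 0.0477).

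Rfx2 had 6.78 and 8.02 CPM on day 1, 14.4 and 8.38 CPM on day 3, 7.44 and 5.77 CPM on day 7, 764 and 1271 CPM in the leptotene/zygotene cells and 569 and 786 in pachytene cells. The spermatocyte fractions overlapped each other and stood far above testis. Rfx2 was higher in leptotene/zygotene cells than at day 7 by 7.26 ± 0.46 (log2, SE, edgeR adjusted p = 8.65e-07). Pachytene over leptotene/zygotene gave -0.59 ± 0.35, which did not pass (edgeR adjusted p = 0.269). Of 7 RFX relatives, Rfx1, Rfx3, Rfx4, Rfx6 and Rfx8 were also higher in leptotene/zygotene cells than at day 7, Rfx7 was lower, and Rfx5 was not called. Rfx6 rested on few counts, 2 and 41 in the leptotene/zygotene libraries (0.972 and 4.11 CPM) against 1 and 0 at day 7. Rfx1, Rfx3 and Rfx8 were higher by 3.07 ± 0.47, 2.06 ± 0.26 and 7.42 ± 0.51 (log2, SE), Rfx4 had a ratio of 1654 over a few day 7 counts (95% counting interval 565 to 8029), and Rfx7 and Rfx5 gave -1.52 ± 0.37 and -0.54 ± 0.30. Rfx1 and Rfx3, the relatives most often linked to cilia, fell by 1.47 ± 0.44 and 1.62 ± 0.26 in pachytene cells relative to leptotene/zygotene cells (log2, SE, edgeR adjusted p = 0.0397 and 0.00308), the call for Rfx1 being lost with plain library sizes (adjusted p = 0.141). Rfx5 rose by 1.25 ± 0.31 in the same step (log2, SE, edgeR adjusted p = 0.019). All 13 tested genes of a 14-gene cilium list were higher in leptotene/zygotene cells than at day 7, with a median of 7.99 against -0.31 over all genes. With plain library sizes 10 were higher, and Bbs2, Bbs4 and Dync2li1 turned to -0.51, -0.43 and -0.23. Spag6 and Spag17, proteins of the central pair of the axoneme, were higher by 11.41 and 10.16, and Foxj1, the ciliary regulator, was the list's only call in pachytene over leptotene/zygotene cells, a fall of 1.37 ± 0.33 that lost its call with plain library sizes.

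**Figure D4:**
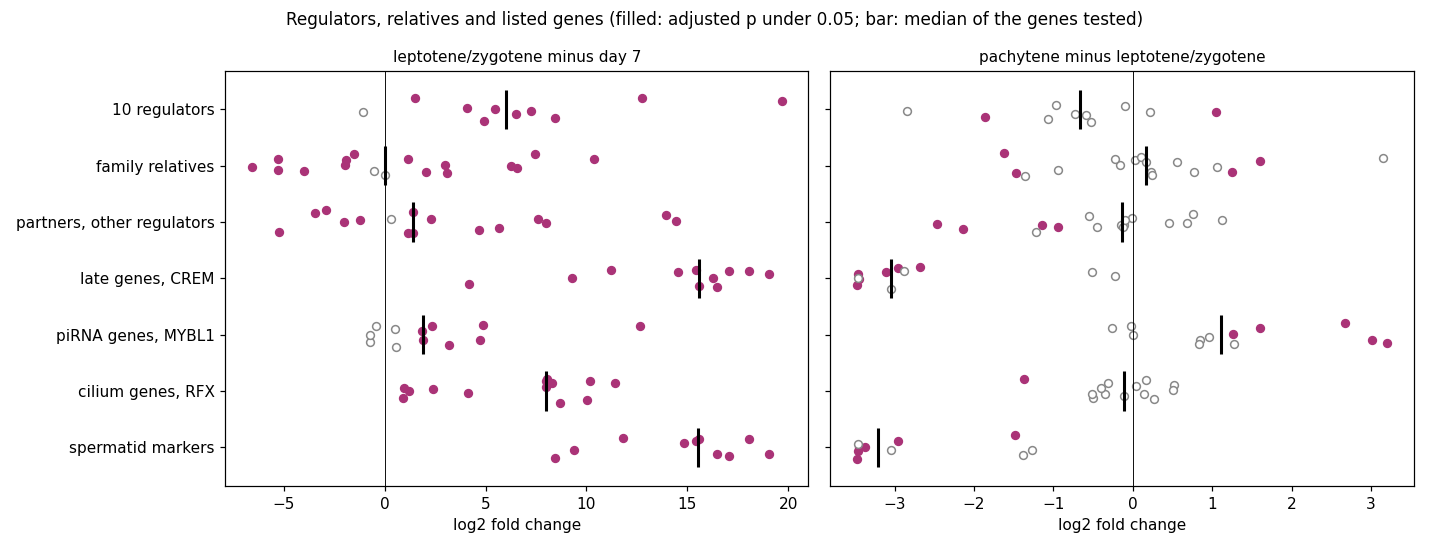
Log2 fold changes of the regulators, their relatives and the listed genes, in leptotene/zygotene over day 7 and in pachytene over leptotene/zygotene, with a point per gene (filled where the edgeR adjusted p is under 0.05) and a bar at the median of the genes tested. The piRNA pathway genes sit at a median of 1.11 in the later step, the late genes at -3.04.

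TBPL1 and TAF7L are both counterparts of general transcription factors, and their courses differed. Tbpl1 had 35.5 and 39.1 CPM on day 1, 41.8 and 34.3 CPM on day 3, 44.1 and 38.9 CPM on day 7, 518 and 882 CPM in the leptotene/zygotene cells and 619 and 687 in pachytene cells. Testis libraries overlapped throughout, as did the 2 spermatocyte fractions. Tbpl1 was higher in leptotene/zygotene cells than at day 7 by 4.08 ± 0.32 (log2, SE, edgeR adjusted p = 2.67e-06). Tbp, the general factor, was higher as well, by 2.97 ± 0.24, at 252 CPM in leptotene/zygotene cells and 32.2 CPM at day 7. Gtf2a1l, a germ-cell form of TFIIA, had 457 and 780 CPM in leptotene/zygotene cells against a single count at day 7, a ratio of 24964 with a 95% counting interval of 4479 to 986144.

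Taf7l, on the X chromosome, was the member that peaked in day 7 testis. It had 11.1 and 16.6 CPM on day 1, 11.4 and 13.8 CPM on day 3, 101 and 83.1 CPM on day 7, 50.1 and 38.1 CPM in the leptotene/zygotene cells and 32.5 and 9.63 in pachytene cells. The day 7 libraries exceeded all others. Taf7l was higher at day 7 than at day 3 by 2.87 ± 0.49 and than at day 1 by 2.72 ± 0.50 (log2, SE, edgeR adjusted p = 0.0299 and 0.0259). Both calls were lost on leaving out any single library of the 4 compared, at log2 changes of 2.59 to 2.87 and 2.38 to 3.03. The part that the higher spermatogonium and early meiotic marker sums of day 7, given with Tcfl5, have in them was not tested. In pachytene cells Taf7l was lower than at day 7 by a log2 change of -2.14 ± 0.49 (SE, edgeR adjusted p = 0.00272), and -3.25 and -1.50 bounded the values on leaving out each library. The step to leptotene/zygotene cells, -1.07 ± 0.47, did not pass (edgeR adjusted p = 0.0597), but it did with upper-quartile factors, plain library sizes, no filter or only the 2 stages. Its relative Taf7 was lower in leptotene/zygotene cells than at day 7 by a log2 change of -1.92 ± 0.35 and then rose by 1.60 ± 0.35 in pachytene cells relative to leptotene/zygotene cells (SE, edgeR adjusted p = 0.000563 and 0.0113). In that later step 2 of 9 Sertoli and 2 of 7 Leydig markers were also higher, with medians of 1.54 and 1.62. By contrast, 3 of 6 macrophage markers were lower. The part of somatic cells in either change of Taf7, or in the rise of Rfx5, was not tested.

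SPZ1 and OVOL1 were under 5 CPM in each testis library and far higher in spermatocytes. Spz1 had 3.82 and 4.66 CPM on day 1, 0 and 4.39 CPM on day 3, no count in either day 7 library, 10765 and 6762 CPM in the leptotene/zygotene cells and 1681 and 753 in pachytene cells. It was at least 85437-fold higher in leptotene/zygotene cells than at day 7, setting the pooled CPM against 3 counts over both day 7 libraries (edgeR adjusted p = 7.88e-05), and at least 12936-fold higher in pachytene cells. Its log2 change of -2.85 ± 1.14 in pachytene over leptotene/zygotene did not pass (edgeR adjusted p = 0.11), though the libraries did not overlap. It passed with no filter (-2.82, adjusted p = 0.0491), only the 2 stages (-2.76, 0.0222), 3 stages (-2.75, 0.0265) and without the day 1 pair and the second day 3 library (-2.75, 0.0271), edgeR adjusted p in each. In that step 6 of the 10 spermatid markers fell and none rose, with a median of -3.21.

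Ovol1 had 1.85 and 2.76 CPM on day 1, 1.43 and 1.38 CPM on day 3, 2.59 and 1.96 CPM on day 7, 211 and 204 CPM in the leptotene/zygotene cells and 156 and 131 in pachytene cells. The spermatocytes stood far above testis, and day 3 lay just below the other testis ages. Ovol1 was higher in leptotene/zygotene cells than at day 7 by 6.50 ± 0.32 (log2, SE, edgeR adjusted p = 3.37e-07). Id2 and Myc, described as repressed by OVOL1, were lower in those cells by log2 changes of -2.97 ± 0.62 and -1.94 ± 0.72 (Myc did not pass with median-ratio factors, edgeR adjusted p = 0.0873), while Ovol2, its relative, was higher by 6.58 ± 0.46. All 9 Sertoli markers fell in that step, with a median of -5.95, as did 42% of all genes, and the part of somatic cells in the lower Id2 and Myc was not tested.

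**Figure D5:**
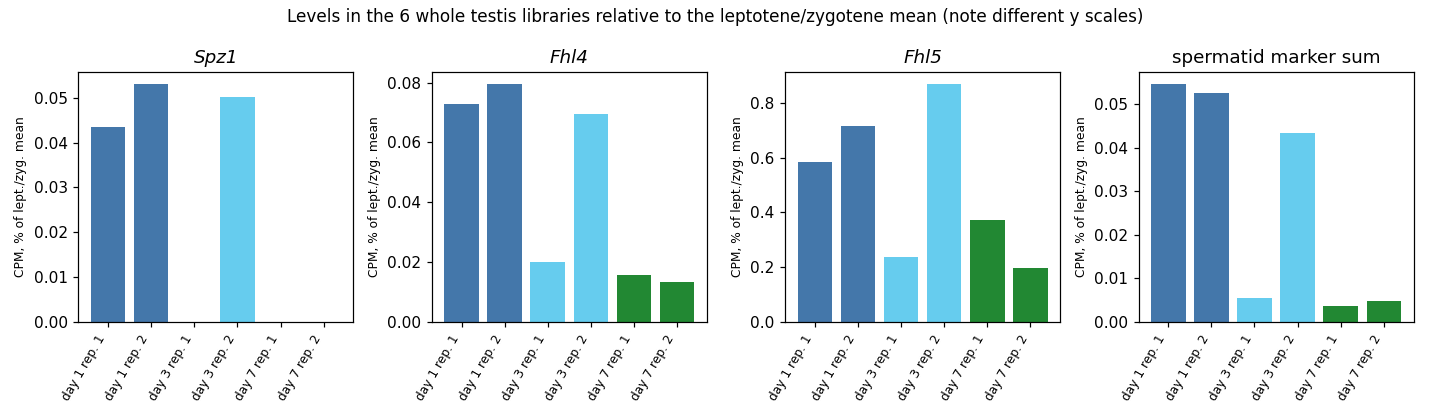
Levels of Spz1, Fhl4, Fhl5 and the summed spermatid markers in the 6 whole testis libraries, each as a percent of the leptotene/zygotene mean, one bar per library. Both day 1 libraries and the second day 3 library stand above the first day 3 library in all 4 panels.

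In the testis libraries, these late genes differed clearly between the day 3 replicates. As a percent of the leptotene/zygotene mean, Spz1 was at 0.0436 and 0.0531 in the day 1 libraries and at 0 and 0.0501 in the day 3 libraries, and both day 7 libraries were at 0. The spermatid marker sum was at 0.0547 and 0.0526 in the day 1 libraries, 0.00547 and 0.0433 in the day 3 libraries, and 0.00361 and 0.00467 in the day 7 libraries. Fhl4 was at 0.0730 and 0.0796 in the day 1 libraries, 0.0200 and 0.0695 in the day 3 libraries, and 0.0156 and 0.0131 in the day 7 libraries. The second day 3 library resembled the day 1 libraries in these genes and the first day 3 library resembled day 7. Spz1 was at least 14.6-fold lower at day 7 than at day 3 and at least 49.5-fold lower than at day 1 (25.2-fold and 48.6-fold from mean rather than pooled CPM), and neither passed (edgeR adjusted p = 0.271 and 0.114). The difference from day 3 passed with DESeq2 (adjusted p = 0.0474) and without the first day 3 library (edgeR adjusted p = 0.0461). That from day 1 passed with DESeq2 (adjusted p = 0.0135), no filter (edgeR adjusted p = 0.0386) and only the 2 stages (edgeR adjusted p = 2.1e-07). The part of spermatid RNA in the early values was not tested.

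The members' order of stages was shared by most. Crem, Fhl5, Fhl4, Rfx2, Tbpl1, Spz1 and Ovol1 were highest in leptotene/zygotene cells, though of these only Fhl5 differed from pachytene by the test, and Mybl1 and Tcfl5 were highest in pachytene cells. Over the 10 libraries, the pattern most like that of Crem among 13234 other genes was Rnf19b (Pearson r = 0.999 on log2(CPM + 1)), and those most like Spz1 were Akap4, Smcp and Odf1, genes of the sperm tail and capsule. The nearest to Taf7l were Taf9b (0.962), Tex11 (0.936) and Stra8 (0.921), and Stra8, the gate to meiosis, averaged 44.8 CPM at day 7 and 2.44 at day 3. The correlation of Taf7l with the other 9 members lay between 0.00531 and 0.200. The 10 points are 5 stages in pairs and share the same libraries and depth, so these values describe the pattern only.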

How the data were processed

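Whole-testis and spermatocyte RNA was sequenced in 10 libraries (5 stages, 2 biological replicates each). The deposited gene table holds raw counts per gene made by the authors; per the submitters' processing notes, BWA 0.7.8, HTSeq 0.6.1, edgeR 3.6.8 and Bowtie 0.12.7 were used with build mm9, and which tool made which table is not given in the sources used here. The 5 summary rows, which hold 44.7% to 64.5% of reads, were left out of library sizes. A floor of 3 counts equals 0.0999 to 1.46 CPM per library, for counting error only. Levels are CPM on TMM-scaled library sizes. Tests used edgeR 4.0.16 (quasi-likelihood, stage as the factor, 5 residual degrees of freedom, two-sided, Benjamini-Hochberg adjustment over the 16872 genes kept by filterByExpr with a minimum count of 10, called under 0.05) in R 4.3.3, and DESeq2 1.42.0 as an alternative; the code was tested on simulated data. Members and gene lists were chosen with earlier results of these data known. The fold bounds of Spz1 were first computed from mean CPM and were changed to pooled CPM, to match a floor over both libraries, after both values and an earlier account of the data had been seen. Alternatives were other scalings, no filter, fewer stages, a 2-fold minimum, a replicate block and libraries left out. All members were named, with relatives and partners of at least 5 CPM in a stage and, from the other lists, some of the genes that moved most. Transcript lengths were not used, so levels are not compared between genes. Small RNA libraries were not analysed here.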

Additional observations from a re-analysis of the deposited data

How the results depend on the processing

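Of 828 alternative log2 fold changes of members, 746 kept direction and side of the threshold, 28 lost the call, 27 gained it and 27 reversed, none of the last in leptotene/zygotene or pachytene over day 7. In those 2 comparisons 9 to 10 and 10 members were called under all alternatives; the cause of each change was not tested. Libraries without the day 1 pair and the second day 3 library, or without both leptotene/zygotene libraries, were chosen after seeing the data. For day 3 over day 1, all genes called numbered 79 (DESeq2), 6 (only the 2 stages), 10 (3 stages) and 0 to 36 leaving out each library. Crem gave -0.0056 with upper-quartile factors. Leaving out each library there gave Crem -0.062 to 0.25, Fhl5 -1.33 to 0.44, Mybl1 -0.42 to 0.20, Tbpl1 -0.078 to 0.29, Taf7l -0.35 to 0.29 and Spz1 -8.70 to 0.083. For day 7 over day 3, members called numbered 0 with a 2-fold minimum, 0 without the day 1 pair and second day 3 library, and 0 to 1 leaving out each library. All genes called there numbered 1026 (DESeq2, 432 higher and 594 lower), 437 (no filter), 1053 (only the 2 stages, 529 and 524), 2168 (3 stages, 1022 and 1146), 26 (2-fold minimum), 0 (without the day 1 pair and second day 3 library) and 0 to 274. Without that set Fhl5 gave 0.082 and Tbpl1 -0.19. Leaving out each library gave Fhl5 -1.69 to 0.083, Mybl1 -0.16 to 0.45 and Tbpl1 -0.19 to 0.17. For day 7 over day 1, members called numbered 4 (DESeq2), 3 (no filter), 6 (only the 2 stages), 3 (3 stages), 0 (2-fold minimum) and 0 leaving out any library. All genes called numbered 1615, 7161 (3447 and 3714), 3009 and 62 under DESeq2, only the 2 stages, 3 stages and the 2-fold minimum, and 0 leaving out any library. Ovol1 gave 0.0085 with 3 stages; leaving out each library gave Mybl1 -0.066 to 0.13, Tbpl1 -0.00034 to 0.20 and Ovol1 -0.36 to 0.28. For pachytene over leptotene/zygotene, members called numbered 0 with the 2-fold minimum and 0 to 3 leaving out each library. All genes called there numbered 1011 (only the 2 stages), 2285 (3 stages), 924 (2-fold minimum), 2257 (without the day 1 pair and second day 3 library) and 2099 to 5066. Tbpl1 gave 0.022 (upper-quartile), 0.48 (plain library sizes), 0.051 (only the 2 stages), 0.056 (3 stages), 0.056 (without the day 1 pair and second day 3 library) and -0.43 to 0.33 leaving out each library, and Ovol1 0.018 with plain library sizes. Plain library sizes gave 4183 higher and 9928 lower genes in leptotene/zygotene over day 7, 3732 and 1107 in pachytene over leptotene/zygotene, and 4521 and 8810 in pachytene over day 7. With mean in place of pooled CPM, also added after seeing the data, the bounds for Spz1 were 100559 and 13965 in leptotene/zygotene and pachytene over day 7, and 25.2 and 48.6 in day 7 below day 3 and day 1. The scalings of relatives and listed genes given in the report were likewise added after seeing the data. The replicate numbers deviated together in 1 of 10 stage pairs, leptotene/zygotene with pachytene (r = 0.746), and were not taken to pair samples. A replicate block called 0, 2, 1, 9, 2 and 10 members, and 0, 267, 593, 13207, 3663 and 12653 genes, for day 3 over day 1, day 7 over day 3, day 7 over day 1, leptotene/zygotene over day 7, pachytene over leptotene/zygotene and pachytene over day 7. With 2 libraries a stage, and 3597360 counts in the smallest, changes below about the replicate spread cannot be resolved. In the simulated data, 3% to 11% of 2-fold changes and 57% to 72% of 4-fold changes were recovered, depending on the comparison. A gene that was not called may therefore still differ.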
